A study of Mus musculus with 6 samples.

Results

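Hypoxia-inducible factor (HIF) target genes were described as 10 genes, picked by symbol from the deposited expression table: Hif1a, Egln1, Egln3, Ankrd37, Slc2a1, Pdk1, Bnip3, Car9, Adm and Ndrg1. The 10 genes were found by symbol among the 18853 genes listed, and 10 of 10 passed the filter on low counts. RNA had been sequenced from mouse bone marrow cells labelled BMSC, the usual abbreviation for bone marrow stromal cells, the adherent cells of marrow that can form bone, fat and cartilage, grown in αMEM medium with 10% serum. The HRP2-KO group was 3 samples (replicates 6, 7 and 44) from mice with a knocked-out gene for HRP2, a PWWP-domain chromatin protein also called HDGFR2 and listed as Hdgfl2, and the WT group was 3 samples (replicates 10, 11 and 12) of wild-type genotype. The labels name no oxygen treatment and no strain, age, sex, passage or deleted exon and do not say whether the knockout was limited to some cell types, and they do not say whether any samples share an animal or a culture, so the p-values here reflect only sample-to-sample spread, which may be technical. Libraries held 20184473 to 20680779 estimated counts.

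HIF is a transcription factor made of an oxygen-sensitive alpha subunit and a stable beta subunit. While oxygen is present, prolyl hydroxylases of the EGLN family mark the alpha subunit for destruction through the VHL ubiquitin ligase. When oxygen falls, the alpha subunit accumulates and switches on genes for glucose uptake, glycolysis, restraint of mitochondrial respiration, acid handling and blood vessel growth. The alpha subunit is controlled mostly at the protein level, which RNA sequencing does not measure. In bone, HIF activity in cells of the osteoblast lineage is known for coupling vessel growth to bone formation.

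HIF binds DNA at a short core, ACGTG or GCGTG, within longer hypoxia response elements. The RefSeq promoter windows of GRCm38.p6, which run from 250 bases before to 50 bases after a gene start, were searched on both strands for these letters. A window was listed for 9 members, and each of the 9 had a window with a match. Counted by window, 9 of 10 held a match, and the second window of Pdk1 held none. Among all 32851 windows 43.8% held a match, 19.6% for ACGTG and 32.4% for GCGTG. A match is a description of letters and not evidence of binding, and ACGTG can also be part of CACGTG, the E-box read by other factors. The windows of Car9, Adm, Bnip3 and Egln3 are shown because these members varied most between libraries, with the matches in capitals on the strand of the gene (CACGT and CACGC are the same cores read on the other strand).
Car9, chr4:43506776-43507075, plus strand: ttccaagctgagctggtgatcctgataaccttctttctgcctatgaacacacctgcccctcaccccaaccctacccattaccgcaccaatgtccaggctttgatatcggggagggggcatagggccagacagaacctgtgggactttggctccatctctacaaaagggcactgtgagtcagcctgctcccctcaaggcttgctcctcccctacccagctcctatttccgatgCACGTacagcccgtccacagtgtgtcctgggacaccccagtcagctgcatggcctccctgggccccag
Adm, chr7:110627407-110627706, plus strand: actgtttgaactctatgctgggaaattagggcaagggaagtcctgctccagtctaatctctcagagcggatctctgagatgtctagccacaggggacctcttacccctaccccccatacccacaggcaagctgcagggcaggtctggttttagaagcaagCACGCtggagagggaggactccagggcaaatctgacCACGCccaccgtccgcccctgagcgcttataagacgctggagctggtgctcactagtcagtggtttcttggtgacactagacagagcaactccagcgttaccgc
Bnip3, chr7:138909457-138909756, minus strand: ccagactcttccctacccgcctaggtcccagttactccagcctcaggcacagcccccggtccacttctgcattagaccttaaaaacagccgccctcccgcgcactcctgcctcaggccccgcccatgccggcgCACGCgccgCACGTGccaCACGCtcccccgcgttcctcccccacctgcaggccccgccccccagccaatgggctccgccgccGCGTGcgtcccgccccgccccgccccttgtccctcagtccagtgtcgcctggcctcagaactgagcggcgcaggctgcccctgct
Egln3, chr12:54203825-54204124, minus strand: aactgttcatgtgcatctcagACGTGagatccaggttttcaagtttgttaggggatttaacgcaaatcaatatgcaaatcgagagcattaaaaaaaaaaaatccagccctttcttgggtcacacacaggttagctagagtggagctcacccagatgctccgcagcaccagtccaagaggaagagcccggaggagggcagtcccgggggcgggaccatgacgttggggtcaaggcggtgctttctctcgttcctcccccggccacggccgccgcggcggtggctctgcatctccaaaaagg
The match in the Car9 window began at position -18, counted from the start. The 2 matches of Adm began at positions -90 and -54 and were both of the GCGTG kind. Bnip3 held 5 matches, of which 2 were the strands of 1 CACGTG, and a window with 3 or more matches was found in 8.93% of all windows. In Egln3 the single match began at position -229.

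In CPM, counts scaled to library size with TMM factors, the targeted gene Hdgfl2 had levels of 6.59, 5.56 and 11.8 (HRP2-KO libraries 6, 7 and 44), against 51.4, 56.2 and 58.2 (WT libraries 10, 11 and 12). Its log2 fold change of HRP2-KO over WT was -2.79 (edgeR, adjusted p = 0.0711). HRP2-KO replicate 7 stood apart from the other HRP2-KO libraries. In it, 13 macrophage markers summed to 13648 CPM, against 1224 and 2507 CPM in HRP2-KO replicates 6 and 44 and 9553 to 24267 CPM in WT, and none of the 13 was at 0 in any library. Also in replicate 7, 9 interferon-response genes summed to 1296 CPM, against 94.6 and 108 CPM in HRP2-KO replicates 6 and 44. In WT they summed to 174 to 239 CPM. This interferon list was added after values were seen. The 9 marrow stroma markers summed to 21474 to 28407 CPM in HRP2-KO and 5158 to 9947 CPM in WT, with 5 of the 9 genes higher and 4 lower by fitted fold change. Col1a1 and Col1a2 carried that sum: the other 7 stroma markers summed to 859, 2538 and 565 CPM in HRP2-KO replicates 6, 7 and 44, against 1945 to 2882 CPM in WT, so without the collagens replicates 6 and 44 lay below each WT library. The 7 proliferation genes summed to 395 to 822 CPM in HRP2-KO and 151 to 207 CPM in WT. Neutrophil, B cell, erythroid and endothelial markers summed to at most 6.63, 0.592, 2.32 and 19.6 CPM in any library. In bulk RNA, fewer cells of a type and less RNA per cell cannot be told apart. In HRP2-KO replicate 44 the tested genes with the shortest transcripts (the first of 5 equal groups, 2708 genes) differed from the mean of the other libraries by a median of 0.64, and those with the longest by -0.59, on the log2 scale. The labels name no batch, so any batch cannot be told apart from genotype.

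**Figure D1:**
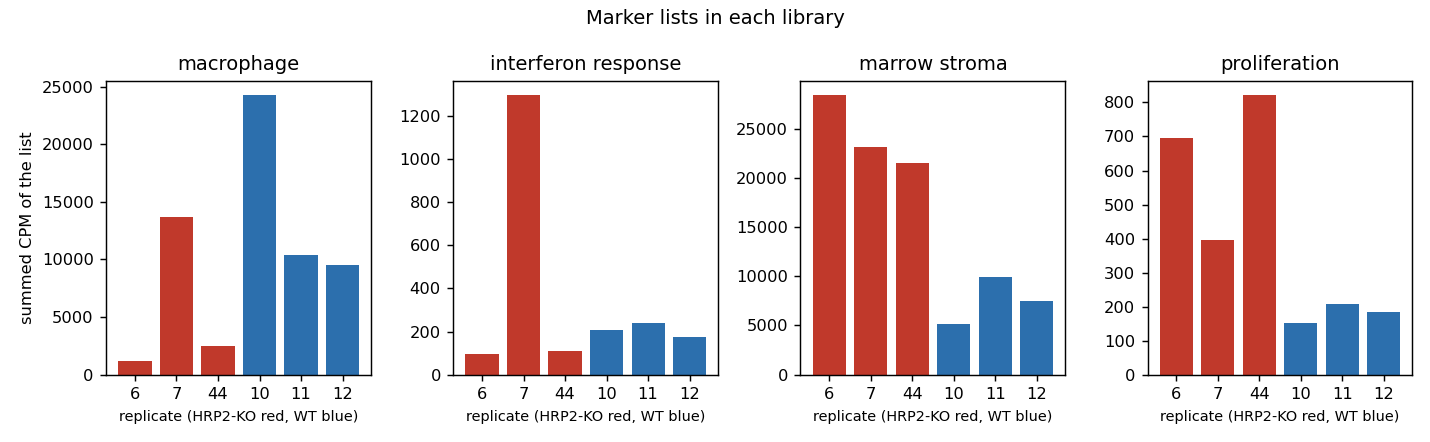
Summed TMM-normalised CPM (y axis) of 4 marker lists in each library (x axis, replicate number), HRP2-KO in red on the left and WT in blue on the right. Macrophage and interferon-response sums were higher in HRP2-KO replicate 7 than in HRP2-KO replicates 6 and 44, while the lowest HRP2-KO sum of stroma and of proliferation genes exceeded the highest WT sum. The stroma sum is mostly Col1a1 and Col1a2, and the other 7 stroma genes summed lower in HRP2-KO replicates 6 and 44 than in each WT library.

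With all libraries, none of the 10 HIF target genes changed past the threshold between HRP2-KO and WT. Fitted log2 fold changes ran from -0.20 for Adm to 1.58 for Egln3, with 8 positive and 2 negative, against 51.0% positive among all tested genes. In 9 of the 10 genes HRP2-KO replicate 7 was the highest of the 6 libraries, Ndrg1 being the exception, and in 5 HRP2-KO replicate 44 was the lowest. In edgeR's quasi-likelihood test over 13696 genes the adjusted p of the members lay between 0.284 and 0.903, and 0 members had an unadjusted p under 0.05. The test called 0% of all tested genes higher and 0.00730% lower (1 gene, Igf2), while 12.7% were higher and 9.10% lower at an unadjusted p under 0.05. Limma voom also called 0 of 10 members and DESeq2 0 of the 9 to which it gave an adjusted p (none for Car9), against 5.45% of genes higher and 4.62% lower in DESeq2 and 0.0511% higher and 0.219% lower in voom. No member had groups that did not overlap, against 31.0% of tested genes. The members' median log2 fold change was 0.75 and that of all tested genes 0.02. Replicate 7 was the highest library in 14.5% of all tested genes and replicate 44 the lowest in 29.9%. Replicate 7 lay at least 2-fold above every other library in 5 members against 2.06% of all tested genes.

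**Figure D2:**
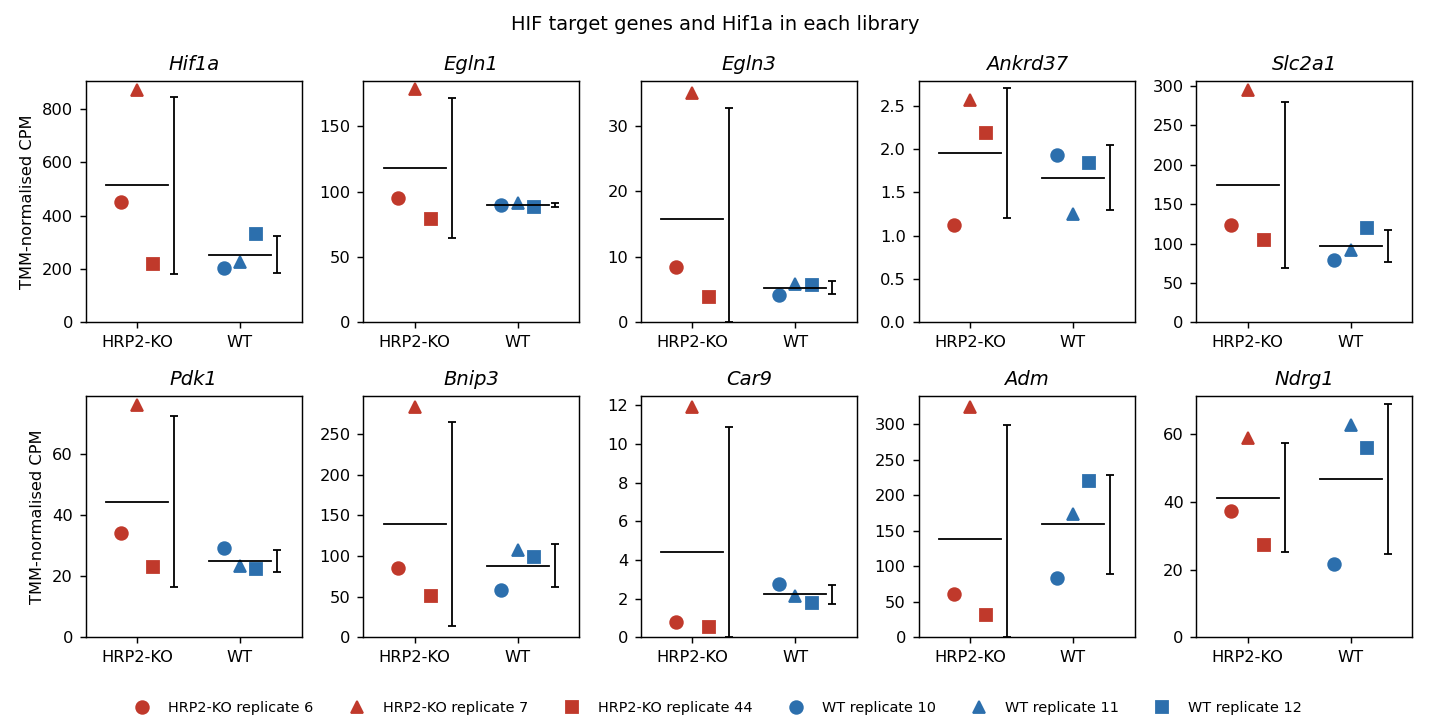
TMM-normalised CPM (y axis, linear from 0) of the 10 genes in each library, HRP2-KO in red left of WT in blue, with marker shapes for replicates, a line at the group mean and a bar of 1 SD beside it (n = 3 each; the lower bar ends at 0 where the SD exceeds the mean). HRP2-KO replicate 7, the red triangle, was the highest point in 9 of 10 panels, and WT replicate 11 was the highest for Ndrg1.

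Hif1a, which encodes the oxygen-sensitive alpha subunit (Entrez 15251, GRCm38.p6 chromosome 12, 73901324 to 73947554), was at 452, 871 and 218 CPM (HRP2-KO libraries 6, 7 and 44), against 205, 226 and 333 CPM (WT libraries 10, 11 and 12). Replicates 6 and 7 of HRP2-KO lay above each WT library and replicate 44 lay within the WT range. The log2 fold change was 1.01 with a standard error of 0.51 and a 95% interval of -0.22 to 2.25 (edgeR, adjusted p = 0.290), and it was 0.43 without HRP2-KO replicate 7. Per transcript length the value of HRP2-KO replicate 44 was 76.2 TPM, below the WT range of 97.4 to 169 TPM, so its place among the WT libraries depended on the scale. Hif1a belonged to the fourth of the length groups, in which replicate 44 differed from the mean of the other libraries by a median of -0.32.

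Egln1 encodes PHD2, the main oxygen-sensing hydroxylase (Entrez 112405, chromosome 8, 124908587 to 124949254). It was at 95.4, 179 and 79.4 CPM (HRP2-KO libraries 6, 7 and 44), against 89.9, 91.1 and 87.9 CPM (WT libraries 10, 11 and 12). The WT libraries lay within a narrow band, with HRP2-KO replicates 6 and 7 above it and 44 below it. On the TPM scale replicate 6, at 57.2 TPM, lay within the WT range of 53.5 to 60.9 TPM. The group means were 118 ± 53.4 CPM in HRP2-KO and 89.6 ± 1.64 CPM in WT (SD, n = 3 each), which gave a log2 difference of 0.40 (SE 0.32). Without HRP2-KO replicate 7 it was 0.0041, with a 95% interval of -0.40 to 0.40.

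Egln3 encodes PHD3, a hydroxylase that HIF itself induces as feedback (Entrez 112407, chromosome 12, 54178981 to 54203874). It was at 8.44, 35.0 and 3.92 CPM (HRP2-KO libraries 6, 7 and 44), against 4.14, 5.91 and 5.74 CPM (WT libraries 10, 11 and 12). Replicate 7 was 4.15 times the next highest library, replicate 6 was also above WT, and replicate 44 was below WT. The log2 fold change was the largest of the members at 1.58, with a standard error of 0.79 and a 95% interval of -0.31 to 3.48. Without HRP2-KO replicate 7 it was 0.26.

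Ankrd37 encodes a small ankyrin-repeat protein induced by HIF (Entrez 654824, chromosome 8, 45996908 to 46000414). Its level was low, at 23 to 48 counts per library, and stood at 1.12, 2.57 and 2.18 CPM (HRP2-KO libraries 6, 7 and 44), against 1.93, 1.25 and 1.84 CPM (WT libraries 10, 11 and 12). Replicates 7 and 44 of HRP2-KO were above the WT range and replicate 6 was below it. On the TPM scale replicate 44, at 3.8 TPM, was within the WT range of 3.18 to 4.25 TPM. The log2 fold change was 0.23 with a 95% interval of -0.82 to 1.27. In the GENCODE annotation the gene overlaps Ufsp2 and Lrp2bp on the opposite strand, and no use of strand is stated, so reads in the overlaps cannot be assigned to 1 gene.

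Slc2a1 encodes GLUT1, the glucose transporter of most cells (Entrez 20525, chromosome 4, 119108745 to 119137330). It was at 124, 295 and 104 CPM (HRP2-KO libraries 6, 7 and 44), against 79.4, 91.4 and 119 CPM (WT libraries 10, 11 and 12). Replicates 6 and 7 of HRP2-KO were above each WT library and replicate 44 was within the WT range. On the TPM scale replicate 6, at 102 TPM, fell within the WT range of 65.0 to 104 TPM. The log2 fold change was 0.85 with a standard error of 0.43 (edgeR, adjusted p = 0.293), and 0.27 without HRP2-KO replicate 7.

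Pdk1, a kinase that inhibits pyruvate dehydrogenase and so limits the entry of pyruvate into the citric acid cycle (Entrez 228026, chromosome 2, 71873215 to 71903858), was at 34.1, 76.1 and 22.9 CPM (HRP2-KO libraries 6, 7 and 44), against 29.2, 23.5 and 22.3 CPM (WT libraries 10, 11 and 12). The order of libraries was that of Slc2a1 within HRP2-KO, with replicates 6 and 7 above WT and replicate 44 within the WT range. On the TPM scale replicate 44, at 8.40 TPM, lay below the WT range of 11.35 to 13.58 TPM. The log2 fold change was 0.83 with a standard error of 0.45, and 0.23 without HRP2-KO replicate 7.

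Bnip3, a mitochondrial outer membrane protein that marks mitochondria for autophagy (Entrez 12176, chromosome 7, 138890836 to 138909506), was at 84.8, 284 and 50.5 CPM (HRP2-KO libraries 6, 7 and 44), against 57.7, 108 and 98.3 CPM (WT libraries 10, 11 and 12). Replicate 7 was above the WT range, 6 within it and 44 below it. The log2 fold change was 0.67 with a standard error of 0.65, and -0.35 without HRP2-KO replicate 7, so its direction rested on that library.

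Car9 encodes a cell-surface carbonic anhydrase that handles acid and is among the most strictly HIF-dependent genes (Entrez 230099, chromosome 4, 43507026 to 43513729). It was at 0.803, 11.9 and 0.549 CPM (HRP2-KO libraries 6, 7 and 44), against 2.75, 2.12 and 1.78 CPM (WT libraries 10, 11 and 12). Replicate 7 was 4.32 times the highest WT library, while replicates 6 and 44, with 16.5 and 11.1 counts, were below each WT library. The spread from highest to lowest library, 21.7-fold, was the widest of the members. With all libraries the log2 fold change was 0.98 with a standard error of 1.15 (edgeR, adjusted p = 0.618), and in limma voom it was -0.37. Without HRP2-KO replicate 7 it was -1.70 with a standard error of 0.45 (edgeR, adjusted p = 0.0435).

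Adm encodes adrenomedullin, a secreted peptide that widens vessels (Entrez 11535, chromosome 7, 110627657 to 110629820). It was at 60.4, 324 and 30.6 CPM (HRP2-KO libraries 6, 7 and 44), against 83.2, 173 and 220 CPM (WT libraries 10, 11 and 12). As for Car9, replicate 7 was the highest library and replicates 6 and 44 were the lowest. With all libraries the log2 fold change was -0.20 with a standard error of 0.88 (edgeR, adjusted p = 0.903), and without HRP2-KO replicate 7 it was -1.78 with a standard error of 0.50 (edgeR, adjusted p = 0.0495). It was 0.24 without HRP2-KO replicate 44 and 0.12 without HRP2-KO replicate 6. Adm lies in the shortest-transcript group, in which replicate 44 differed from the others by a median of 0.64, and its CPM was lowest in that library. The macrophage sum was also low in HRP2-KO replicates 6 and 44, while among WT libraries Adm was lowest in replicate 10, which had the highest macrophage sum. The part of the transcript-length shift and of these markers in the low values was not tested.

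Ndrg1 encodes a cytoplasmic protein induced by hypoxia and other stress (Entrez 17988, chromosome 15, 66929318 to 66969641). It was at 37.5, 59.1 and 27.3 CPM (HRP2-KO libraries 6, 7 and 44), against 21.6, 62.9 and 56.1 CPM (WT libraries 10, 11 and 12). It was the 1 member whose highest library was WT, and the HRP2-KO values lay inside the WT range. On the TPM scale replicate 44, at 15.05 TPM, lay just below the WT range of 15.71 to 51.41 TPM. The log2 fold change was -0.18 with a standard error of 0.46 (edgeR, adjusted p = 0.824).

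With HRP2-KO replicate 7 left out, 2 members were called lower in HRP2-KO and the others had no called change. Adm and Car9 fell past the threshold and 0 members rose, in a fit of 13983 genes that called 12% lower and 12.1% higher. Replicate 7 was the highest library for both, so leaving it out lowered their HRP2-KO means. It was 1 of the fits that each left out 1 replicate, described at length here, and the others called 0 members. At an unadjusted p under 0.05 the members numbered the same 2 lower and 0 higher, against 20.6% and 21.4% of all genes. These 2 of 10 members stood against a background in which 24.1% of genes were called in either direction. The share of members called was thus no greater than that of all genes. In HRP2-KO replicates 6 and 44, 8 members overlapped the WT range, 2 lay below it and 0 above it, against 31.6% of genes below and 29.6% above. The members' median log2 fold change in that fit was 0.02, with 6 positive, and that of all genes was -0.00050, with 50% positive. In the same fit 11 of 13 macrophage markers were called lower and 0 higher, and 6 of 7 proliferation genes were called higher. Of the 9 interferon-response genes, listed after values were seen, 4 were called lower and 0 higher. The part of these marker lists in the members' values was not tested.

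**Figure D3:**
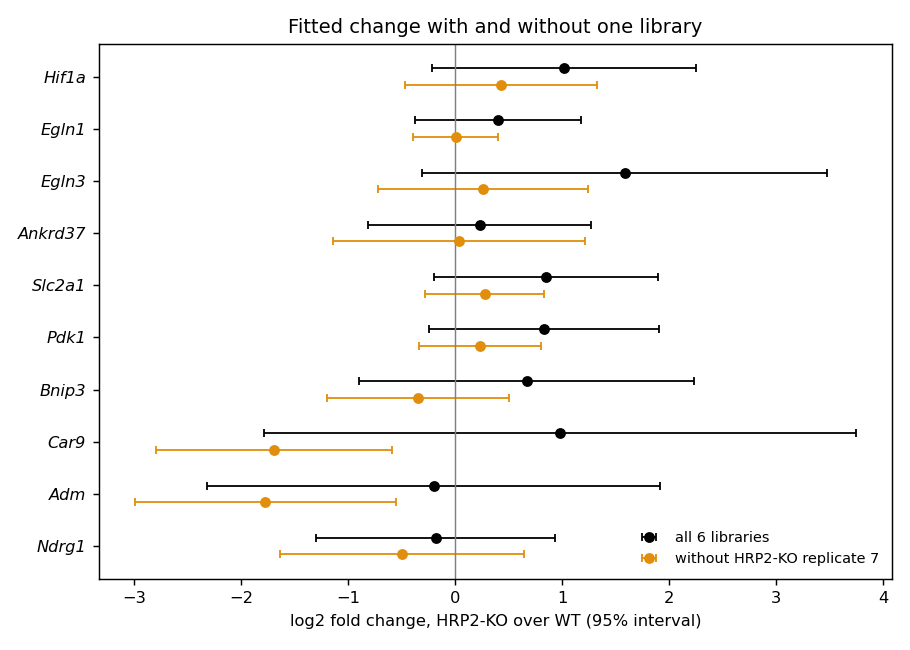
Fitted log2 fold change of HRP2-KO over WT (x axis) with its 95% interval for each gene (rows), from the 6 libraries in black and without HRP2-KO replicate 7 in orange. The black intervals each cross 0, and the orange intervals of Car9 (-2.80 to -0.59) and Adm (-2.995 to -0.55) do not.

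Set against the WT mean on a log2 scale, the members differed in how far each HRP2-KO library moved. In replicate 7 the differences ran from 0.33 for Ndrg1 to 2.73 for Egln3, with Car9 at 2.42 and Hif1a at 1.77. In replicate 44 they ran from -2.38 for Adm to 0.38 for Ankrd37. Replicate 6 was above the WT mean for Hif1a (0.83), Egln3 (0.68), Pdk1 (0.45), Slc2a1 (0.35) and Egln1 (0.09), and below it for the other 5. Of those 5, Car9 (-1.47) and Adm (-1.40) lay farthest below it.

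**Figure D4:**
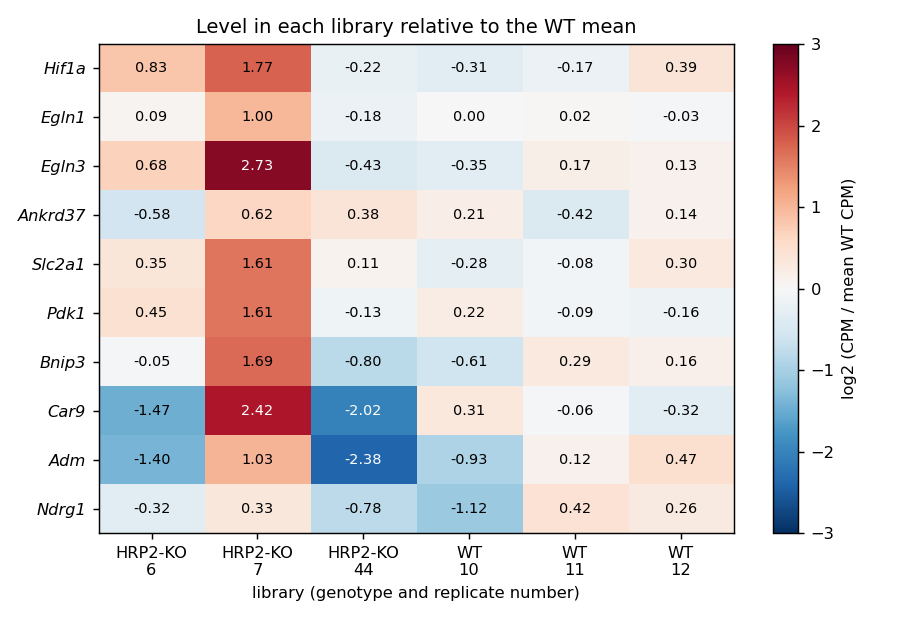
Log2 of the CPM over the mean WT CPM (colour and printed value) for each gene (rows) in each library (columns, HRP2-KO left of WT). The column of HRP2-KO replicate 7 is above 0 in 10 of 10 rows, and Car9 and Adm are the rows with the lowest values in HRP2-KO replicates 6 and 44.

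Levels of different genes were compared per transcript length, in the deposited TPM. In HRP2-KO the order of means was Hif1a (227 TPM), Adm (197), Bnip3 (156), Slc2a1 (131), Egln1 (64.0), Ndrg1 (27.5), Pdk1 (20.2), Egln3 (11.5), Car9 (4.50) and Ankrd37 (3.96 TPM). In WT it was Adm (263 TPM), Hif1a (129), Bnip3 (114), Slc2a1 (84.4), Egln1 (56.7), Ndrg1 (36.9), Pdk1 (12.4), Egln3 (4.43), Ankrd37 (3.85) and Car9 (2.64 TPM). In HRP2-KO the ranges of all neighbours overlapped. In WT those of Adm, Hif1a, Bnip3 and Slc2a1 each overlapped the next, as did those of Egln3 and Ankrd37, while the other neighbours did not overlap. The tested genes outside the members whose standardised profile over the 6 libraries lay nearest the members' mean profile were Gopc, Parp9, Ppm1b, Dcaf8 and Tor1aip2, at root mean square distances of 0.149, 0.216, 0.234, 0.234 and 0.237 SD. Parp9, a partner of the interferon-induced ubiquitin ligase DTX3L, was at 18.4, 81.0 and 16.9 CPM (HRP2-KO libraries 6, 7 and 44), against 19.4, 18.1 and 22.9 CPM in WT. Among the members themselves, Egln1, Bnip3 and Egln3 were nearest to that mean profile (0.242, 0.243 and 0.260 SD) and Ankrd37 and Ndrg1 farthest (1.06 and 0.88 SD).

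Other genes of the pathway were read from lists with the members taken out. Among 13 tested HIF subunits and oxygen-sensing genes 0 were called in either direction by edgeR with all libraries. At an unadjusted p under 0.05, 2 were higher and 0 lower, against 12.7% and 9.10% of all tested genes. The median log2 fold change was 0.05. Vhl, the ligase subunit that binds hydroxylated HIF, was at 23.8, 22.4 and 22.3 CPM (HRP2-KO libraries 6, 7 and 44), against 13.4, 14.9 and 14.5 CPM in WT. Its groups did not overlap, and the log2 fold change was 0.68 with a standard error of 0.17 (edgeR, adjusted p = 0.119). Eloc, an elongin subunit of that ligase, had a log2 fold change of 0.66 and Elob of 0.76 (edgeR, adjusted p = 0.202 and 0.328). For the coactivator Ep300 it was -0.67 (edgeR, adjusted p = 0.337). Eloc and Elob lie in the shortest-transcript group and Ep300 in the longest, in which replicate 44 differed by medians of 0.64 and -0.59. Without HRP2-KO replicate 44 the log2 fold changes were 0.39, 0.13 and -0.36, in that order. Groups did not overlap in 2 higher and 0 lower genes of the list, against 17% and 14.0% of all tested genes. On the TPM scale the numbers were 1 higher and 4 lower, against 7.41% and 23.7%. Without HRP2-KO replicate 7, 2 of the 13 were called higher (Vhl and Eloc) and 2 lower (Epas1 and Hif3a). In that fit 12.1% of all genes were called higher and 12% lower. Epas1, which encodes the second HIF alpha subunit and is named here after its values were seen, was at 6.45, 60.9 and 3.32 CPM (HRP2-KO libraries 6, 7 and 44), against 174, 79.2 and 34.0 CPM (WT libraries 10, 11 and 12). Like the macrophage sum, it was highest in WT replicate 10 and lowest in HRP2-KO replicates 6 and 44, and the part of those markers in it was not tested.

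Of 16 HIF-inducible glycolytic genes 15 had a positive log2 fold change, with a median of 0.79, and in 11 each HRP2-KO library lay above each WT library, against 17% of all tested genes. On the TPM scale that held for 6 of the 16, against 7.41% of all tested genes higher and 23.7% lower. With all libraries 0 were called by edgeR over all genes, while 9 had an unadjusted p under 0.05. These 9 were all higher, against 12.7% of all tested genes higher. Tpi1, triosephosphate isomerase, was at 469, 602 and 625 CPM (HRP2-KO libraries 6, 7 and 44), against 202, 233 and 245 CPM in WT (log2 fold change 1.32, standard error 0.21, adjusted p = 0.0939). Pfkl, the liver form of phosphofructokinase, was at 196, 286 and 215 CPM in HRP2-KO, against 102, 107 and 90.1 CPM in WT. Gapdh and Pgam1, the next by p, had log2 fold changes of 1.34 and 0.89. Gapdh has many processed pseudogenes that can share its reads. Without HRP2-KO replicate 7 the list's median was 0.54 and 5 genes were called higher, against 12.1% of all genes in that fit.

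Of 45 other tested HIF targets 31 had a positive log2 fold change, with a median of 0.34 that became 0.08 without HRP2-KO replicate 7. With all libraries 0 were called by edgeR, while 10 were higher and 1 lower at an unadjusted p under 0.05. The shares of all tested genes were 12.7% and 9.10%. Replicate 7 was the highest library in 27 of the 45, against 14.5% of all tested genes. Groups did not overlap in 10 higher and 2 lower genes, against 17% and 14.0% of all tested genes. On the TPM scale the numbers were 3 higher and 4 lower, against 7.41% and 23.7%. Loxl2, a collagen cross-linking enzyme, was at 354, 554 and 180 CPM (HRP2-KO libraries 6, 7 and 44), against 91.0, 91.9 and 51.1 CPM in WT. Jmjd6, an oxygen-dependent hydroxylase, was at 60.9, 64.1 and 76.2 CPM in HRP2-KO, against 34.0, 33.2 and 37.1 CPM in WT. Fam162a had a log2 fold change of 1.33 and Flt1, a receptor for VEGF, of -1.61, with adjusted p of 0.109 and 0.121. Without HRP2-KO replicate 7, 4 of the 45 were called higher and 6 lower, against 12.1% and 12% of all genes in that fit.

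Among 9 tested genes of the pyruvate dehydrogenase complex, its kinases and its phosphatases, the kinases Pdk3 and Pdk2 lay on opposite sides. Pdk3 was at 55.6, 62.7 and 61.8 CPM (HRP2-KO libraries 6, 7 and 44), against 29.2, 40.4 and 45.7 CPM in WT. Pdk2 was at 16.5, 24.5 and 13.2 CPM in HRP2-KO, against 29.6, 30.6 and 27.4 CPM in WT. On the TPM scale the groups of Pdk3 overlapped (48.2 TPM in HRP2-KO replicate 44, 50.2 TPM in WT replicate 12). Those of Pdk2 did not. Neither was called with all libraries (edgeR, adjusted p = 0.171 and 0.202). The phosphatase Pdp2 (0.32) and the kinase Pdk4 (-0.50) had smaller log2 fold changes. In the list of 20 tested relatives of the members, Adm2, a peptide hormone of the adrenomedullin family, was at 9.66, 7.33 and 3.22 CPM (HRP2-KO libraries 6, 7 and 44), against 0.789, 0.877 and 0.188 CPM in WT, with 4 counts in WT replicate 12. It thus lay higher in each HRP2-KO library, while Adm did not. Its log2 fold change was 3.43 with a standard error of 0.70 (edgeR, adjusted p = 0.105). Car2 and Car3, carbonic anhydrases of the cytosol, had few counts. Car2 was at 0.146 to 0.321 CPM in HRP2-KO (3 to 6 counts) and 0.641 to 1.66 CPM in WT (13 to 36 counts). Car3 was at 0.107 to 0.244 CPM in HRP2-KO (2 to 5 counts), against 2.37, 14.3 and 0.471 CPM (WT libraries 10, 11 and 12). Slc2a10, a relative of the glucose transporters, had a log2 fold change of 0.83. In both lists 0 genes were called by edgeR with all libraries, with medians of 0.07 and -0.36. At an unadjusted p under 0.05, 1 gene of the pyruvate dehydrogenase list was higher and 1 lower, and 2 relatives were higher and 3 lower. Of all tested genes 12.7% were higher and 9.10% lower by that measure. In the edgeR fit that left out HRP2-KO replicate 7, 1 gene of the pyruvate dehydrogenase list was called lower (Pdk2, adjusted p = 0.0267). Of the relatives 1 was called higher (Adm2, edgeR, adjusted p = 0.0278) and 3 lower, with Car2 (edgeR, adjusted p = 0.0344) among them. Car2 had 3 counts in each of HRP2-KO replicates 6 and 44. The shares of all genes called in that fit were 12.1% higher and 12% lower. Limma voom called 0 genes in each of the 5 lists. DESeq2 called 1 subunit or sensing gene higher, 7 glycolytic genes higher, and 6 other targets higher and 1 lower. It called 0 of the pyruvate dehydrogenase list, and 1 relative higher and 2 lower. Of all genes DESeq2 called 5.45% higher and 4.62% lower.

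**Figure D5:**
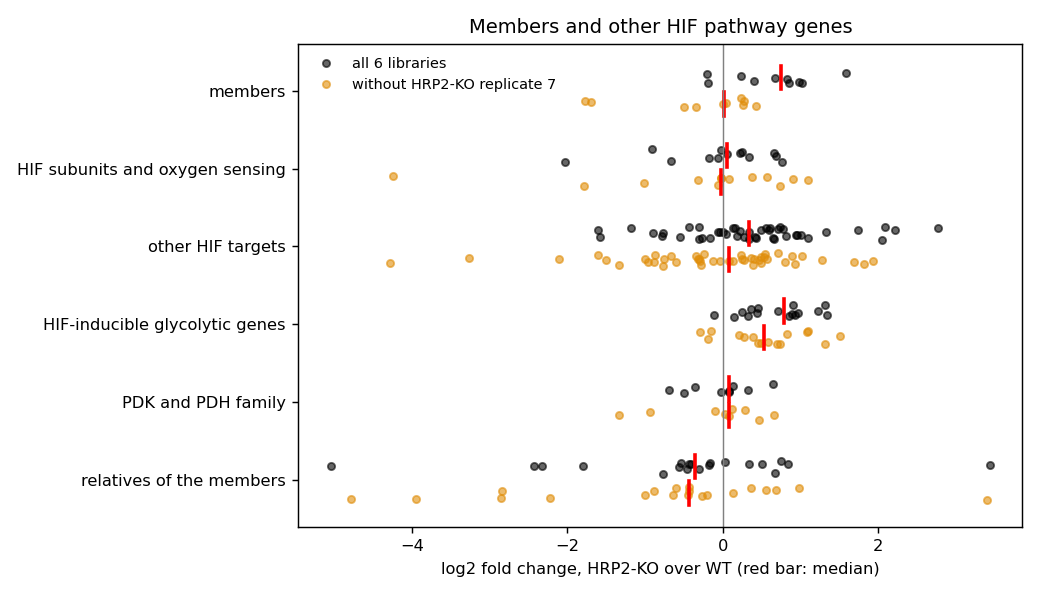
Log2 fold change of HRP2-KO over WT (x axis) for the 10 genes and for 5 lists of other HIF pathway genes (rows), with 1 point per gene, black for the 6 libraries and orange without HRP2-KO replicate 7, and a red bar at each median. The median of the 10 genes was 0.75 with the 6 libraries and 0.02 without replicate 7, and that of the glycolytic genes was 0.79 and 0.54.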

How the data were processed

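RNA from 6 BMSC samples, 3 HRP2-KO and 3 WT by the title labels, was sequenced. Per the submitters' processing notes, reads were aligned with BWA to GRCm38.p6. Not given in the sources used here: counting program, annotation, strand. Overlapping genes and pseudogene copies are therefore uncertain. The authors deposited 1 table of 18853 genes with estimated counts, not all whole and not normalized, and, per the file headers, TPM values, which the authors scaled to transcript length and a common total per library. Its 36 other value columns were not used.

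Counts were rounded. The filterByExpr function of edgeR, at a minimum count of 10 and total of 15, kept 13696 genes, which were normalised with TMM factors of 0.906 to 1.07. HRP2-KO was compared with WT by edgeR 4.0.16 (R 4.3.3) quasi-likelihood F-test, two-sided, with Benjamini-Hochberg adjustment over all tested genes and a threshold of 0.05. The standard error is the log2 fold change divided by the square root of F. A gene with no count allows up to 0.139 to 0.160 CPM (3 counts, counting error only). Length groups are 5 equal groups by the ratio of counts to TPM. Likeness used log2 CPM (prior count 2) of genes with a mean of at least 5 CPM. Sequences and gene positions are RefSeq's for GRCm38.p6, and overlaps are from GENCODE M21.

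The members and the 5 pathway lists were chosen with earlier results of these data known. The text names the members, the 4 other genes with the smallest p of each list, Hdgfl2 and the 5 nearest profiles. The interferon list, Epas1, Hif3a, Ndufa4l2 and Calcrl were added after values were seen. The stroma sum without collagens and the TPM overlap counts were also added after values were seen. The edgeR step was tested on simulated data with 50 genes changed at each fold. It recovered 6% of 2-fold, 50% of 4-fold, 92% of 8-fold and 100% of 16-fold changes, with 7 false calls. Changes of 2-fold were thus mostly missed, and a member without a call may still differ by that much. As alternatives the fit was repeated with DESeq2 1.42.0, voom in limma 3.58.1, factors from RLE or the upper quartile, genes unfiltered or kept at 1 CPM in 3 samples, limma on deposited TPM in log2 with 1 or 0.1 added (where 3 samples reached 1 TPM), and each replicate left out. Figures used matplotlib 3.10.9.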

Additional observations from a re-analysis of the deposited data

How the results depend on the processing

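No paired analysis was possible because the groups share no replicate number. The members were called 0 times in either direction in 13 of the 14 alternatives, and without HRP2-KO replicate 7 the number called lower was 2. Over all genes the number called higher, 0 in the reported fit, was 840 in DESeq2, 7 in limma voom, 6 on log2(TPM + 1) and 2 on log2(TPM + 0.1). The number called lower, 1 in the reported fit, was 713, 30, 36 and 25 in the same order. Leaving out each replicate gave 0 to 1694 genes higher and 0 to 1676 lower, with 0 to 2 members lower. Both maxima came without HRP2-KO replicate 7, and 0 genes were called without replicate 44.

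Of 140 refits of member log2 fold changes 128 kept their direction and side of the threshold (Car9 in DESeq2, which had no p, judged on direction alone), 11 changed sign and 1 passed the threshold in the same direction (Adm without HRP2-KO replicate 7). Of the 140, 2 passed the threshold, that one and Car9 without HRP2-KO replicate 7, which also changed sign. Car9 was at -0.37 in limma voom, -0.13 on log2(TPM + 1), -0.51 on log2(TPM + 0.1) and -1.70 without HRP2-KO replicate 7, where Bnip3 was at -0.35. Adm was at 0.12 without HRP2-KO replicate 6, 0.24 without replicate 44 and 0.11 without WT replicate 12. Ndrg1 was at 0.018 without HRP2-KO replicate 44 and 0.086 without WT replicate 11, and Ankrd37 at -0.0082 on log2(TPM + 0.1). Ndufa4l2 was at -1.21 in limma voom, -1.03 on log2(TPM + 1), -1.33 on log2(TPM + 0.1) and -4.28 without HRP2-KO replicate 7. Calcrl was at 0.087 without WT replicate 10. Over the fits that left out 1 replicate the ranges were -0.35 to 1.04 for Bnip3, -1.70 to 1.47 for Car9, -1.78 to 0.24 for Adm, -0.53 to 0.086 for Ndrg1, -4.28 to 3.89 for Ndufa4l2 and -2.22 to 0.087 for Calcrl. The cause of these sign changes was not tested. Low counts limit Car9 and Ankrd37.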

Other observations

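Ndufa4l2, which encodes a mitochondrial protein that HIF induces and that restrains respiration, belonged to the list of other HIF targets and was chosen after its values were seen. It was at 1.81, 517 and 0.744 CPM (HRP2-KO libraries 6, 7 and 44), against 10.2, 53.0 and 13.2 CPM (WT libraries 10, 11 and 12). As for Car9 and Adm, HRP2-KO replicate 7 was the highest library and replicates 6 and 44 the lowest. With all libraries its log2 fold change was 2.77 with a standard error of 2.18 (edgeR, adjusted p = 0.460), and without HRP2-KO replicate 7 it was -4.28 with a standard error of 0.97 (edgeR, adjusted p = 0.0302). The latter fit called 4 of the 45 other targets higher and 6 lower, against 12.1% and 12% of all genes.

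Calcrl, the receptor through which adrenomedullin acts, was in the list of relatives and was also chosen after its values were seen. It was at 2.53, 20.6 and 2.74 CPM (HRP2-KO libraries 6, 7 and 44), against 22.0, 8.12 and 8.09 CPM (WT libraries 10, 11 and 12). HRP2-KO replicates 6 and 44 lay below each WT library, as they did for Adm itself. Its level was also highest in WT replicate 10 and in HRP2-KO replicate 7 and lowest in HRP2-KO replicates 6 and 44, the order of the summed macrophage markers, whose part in it was not tested. With all libraries the log2 fold change of Calcrl was -0.56 (edgeR, adjusted p = 0.725), and without HRP2-KO replicate 7 it was -2.22 (edgeR, adjusted p = 0.0372). The latter fit called 1 of the 20 tested relatives higher and 3 lower, against 12.1% and 12% of all genes.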
